A study of Mus musculus with 15 samples.

Results

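Expanded T cell receptor (TCR) β rearrangements of the tumor-draining lymph node (TdLN) that were missing from both tumors of the same mouse are described here. They were chosen by their template count and by their absence from the tumors. An in-frame nucleotide rearrangement without a stop codon was taken when it had at least 5 templates in the TdLN and the same 87-base sequence was listed in neither the right nor the left tumor of that mouse. The choice gave 297 rearrangements, called node-only below, of 434 expanded in-frame rearrangements and of 15712 in-frame rearrangements in the 5 TdLNs. The 15 samples together listed 29992 rearrangements. The other 137 expanded rearrangements were found in at least 1 tumor of their mouse and are called shared. The 14948 rearrangements with 1 to 4 TdLN templates that were absent from both tumors are called small.

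The study compared paired TdLN and tumor repertoires of 5 untreated control mice, with 1 TdLN, 1 right and 1 left tumor each. The mice were female C57BL/6, bought at 6 weeks of age, and carried B16F10GP on both flanks, a mouse melanoma line given the glycoprotein of lymphocytic choriomeningitis virus by lentiviral transduction and sorted as a stable line. The right tumor was implanted on day 0, the left on day 3, and tissues were taken on day 19. The paper states that its TdLNs came from the side of the first implanted tumor, here the right. The left tumor was thus on the flank opposite the sampled TdLN. Antigen-experienced cytotoxic T cells, sorted as CD8+ PD-1+ CD44+, gave the genomic DNA for the immunoSEQ assay, although the cell type field of the labels names the tumor line. No marker gene was measured, so the sort could not be checked in these data. TdLNs held 3254 to 9105 in-frame templates, right tumors 3601 to 6137 and left tumors 238 to 3975, the lowest being the left tumor of mouse 4. Library names in the labels begin with CON for mice 1 to 3 and with Con for mice 4 and 5, a difference in spelling that may or may not mark batches, and the TdLNs of mice 4 and 5 listed the most in-frame rearrangements, 5722 each against 1290 to 1631. Left tumors 1 and 2 also held rearrangements of the other mouse: 25 of the 32 shared rearrangements of TdLN 2 were in left tumor 1, and 20 of the 41 of TdLN 1 were in left tumor 2. Left tumor 3 held 1 of the 39 shared rearrangements of TdLN 3. Left tumor 5 held 9 of the 20 of TdLN 5, and 6 of the 37 node-only rearrangements of TdLN 4. Of the shared rearrangements of their own TdLN, left tumors 1 and 2 held 29 of 41 and 31 of 32. The joining of left tumors to TdLNs by number is thus uncertain. Whether low sharing with a left tumor came from the numbering or from the opposite flank was not tested. Right tumors held 129 of the 137 shared rearrangements and left tumors 73. Presence in a tumor of the same number defines this class, so these counts cannot check the joining of right tumors. Right tumor 4 held 5 of the 42 expanded rearrangements of TdLN 4. With the right tumor alone deciding, the node-only rearrangements numbered 305.

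A TCR β gene is built in a developing T cell by joining a V, a D and a J segment, and the junction codes for the third complementarity-determining region (CDR3), the loop that contacts peptide on an MHC molecule. Bases added by terminal transferase at the joints, the N insertions, make most junctions differ between cells, whereas junctions without them can arise again in other cells and other animals. When a CD8+ T cell divides, its daughters carry the same rearrangement, so several templates of one sequence are read as an expanded clone. In these data the template count also moved with the J gene, in non-productive rearrangements too, as shown with the J genes below, and whether this comes from the assay is not known from the sources used here. "Expanded" therefore means a count of at least 5 templates and nothing more. The draining node is where T cells first meet tumor antigen on dendritic cells and from which activated cells leave for the tumor.

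To show what such a rearrangement looks like, the largest node-only one of each mouse is printed 5′ to 3′ as read. Capitals mark the CDR3 part of the read, from the first CDR3 codon as placed in the deposited files to the read's end, and the lower-case part is what precedes it, which in these 5 reads is V gene sequence.
node-only, mouse 1, Trbv17 and Trbj2-7: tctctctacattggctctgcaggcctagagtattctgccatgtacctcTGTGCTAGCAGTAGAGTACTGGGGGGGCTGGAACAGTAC
node-only, mouse 2, Trbv1 and Trbj2-7: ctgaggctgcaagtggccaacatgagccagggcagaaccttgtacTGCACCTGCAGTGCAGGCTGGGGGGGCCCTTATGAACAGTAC
node-only, mouse 3, Trbv13-3 and Trbj2-7: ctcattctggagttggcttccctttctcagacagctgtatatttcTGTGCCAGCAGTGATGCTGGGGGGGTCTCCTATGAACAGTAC
node-only, mouse 4, Trbv20 and Trbj1-5: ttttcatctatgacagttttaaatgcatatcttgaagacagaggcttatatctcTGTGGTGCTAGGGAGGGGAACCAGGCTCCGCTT
node-only, mouse 5, Trbv19 and Trbj2-1: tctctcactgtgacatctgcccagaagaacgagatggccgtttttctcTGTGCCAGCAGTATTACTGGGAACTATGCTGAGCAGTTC
Their V and J parts matched the TCR β locus on chromosome 6 of GRCm38 (mm10) exactly and at a single position each, on the plus strand. In mouse 1 the read ran over chr6:41163492-41163555 in exon 2 of Trbv17 and chr6:41543817-41543825 in Trbj2-7, with 3 N insertions and a CDR3 of 14 residues. In mouse 2 it held chr6:40891824-40891884 in exon 2 of Trbv1 and chr6:41543814-41543825 in Trbj2-7. The rearrangement of mouse 3 held chr6:41130525-41130585 in exon 2 of Trbv13-3 and chr6:41543810-41543825 in Trbj2-7, joined with 1 inserted base. That of mouse 4 held chr6:41188910-41188977 in exon 2 of Trbv20 and chr6:41535088-41535102 in Trbj1-5, with no inserted base. In mouse 5 the parts were chr6:41178985-41179046 in exon 2 of Trbv19 and chr6:41542755-41542772 in Trbj2-1. In mice 1 to 3 the capitals hold a run of at least 6 G, letters that the germline Trbd2 segment also has. On the printed strand such a run, GGGGGG, was in the CDR3 of 18.5% of node-only, 24.8% of shared and 22.4% of small rearrangements.

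For comparison, the largest shared rearrangement of each mouse follows with the same marking. In the Trbv16 rearrangement of mouse 1 the files place the CDR3 start beyond the 61 bases that matched the V gene, so its lower-case part also holds junction bases, and its capitals do not begin with a cysteine codon.
shared, mouse 1, Trbv16 and Trbj2-7: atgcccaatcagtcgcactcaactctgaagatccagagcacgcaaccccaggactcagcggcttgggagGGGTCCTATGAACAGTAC
shared, mouse 2, Trbv1 and Trbj1-5: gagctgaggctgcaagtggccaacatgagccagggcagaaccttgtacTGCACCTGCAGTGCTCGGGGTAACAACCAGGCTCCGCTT
shared, mouse 3, Trbv2 and Trbj2-1: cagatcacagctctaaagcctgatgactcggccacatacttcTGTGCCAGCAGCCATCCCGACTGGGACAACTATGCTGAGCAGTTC
shared, mouse 4, Trbv1 and Trbj2-1: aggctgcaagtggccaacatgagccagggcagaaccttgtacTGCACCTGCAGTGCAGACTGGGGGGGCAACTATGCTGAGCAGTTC
shared, mouse 5, Trbv20 and Trbj2-7: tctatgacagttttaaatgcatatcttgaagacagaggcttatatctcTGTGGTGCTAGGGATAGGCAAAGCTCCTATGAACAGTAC
The shared sequences of mice 1 and 2 had more templates in each tumor than in the TdLN. The Trbv16 rearrangement of mouse 1 had 409 templates in the TdLN, 2948 in the right and 1335 in the left tumor, and the Trbv1 rearrangement of mouse 2 had 113, 1158 and 498. In mouse 3 the Trbv2 rearrangement had 202 TdLN and 247 right tumor templates and was absent from the left tumor. In mice 4 and 5 the largest shared rearrangements had 28 and 27 TdLN templates but 1 right tumor template and 3 left tumor templates, respectively.

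Node-only rearrangements were found in every mouse. They numbered 40, 41, 98, 37 and 81 in mice 1 to 5, against 41, 32, 39, 5 and 20 shared rearrangements. Of the expanded rearrangements they made up 49.4%, 56.2%, 71.5%, 88.1% and 80.2%, a mean of 69.1% ± 16.2 (SD, n = 5 mice). Mice 4 and 5 had the highest of these shares. Because the count and the absence from tumors chose the groups, these values and those of the next paragraphs up to the gene usage are a description without a test.

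In the TdLN the node-only rearrangements held 11.01%, 10.5%, 26.5%, 4.08% and 5.74% of the in-frame templates of mice 1 to 5, a mean of 11.6% ± 8.88 (SD, n = 5). The shared rearrangements held 40.7%, 18.6%, 26.3%, 0.619% and 2.53%, a mean of 17.8% ± 16.8. In mice 1 and 2 the shared class held more templates than the node-only class, in mouse 3 about as many, and in mice 4 and 5 fewer. Mouse 3 stood above the other mice in the node-only share.

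Most node-only rearrangements had fewer than 10 templates. Their median was 7, 7, 8, 6 and 5 templates in mice 1 to 5, against 11, 13, 10, 7 and 8 in the shared class. Of the 297, exactly 5 templates were counted for 100, at least 10 for 65, at least 20 for 17 and at least 50 for 1, whereas the 137 shared rearrangements had 21, 74, 38 and 13 in these ranges. The largest node-only rearrangements of mice 1 to 5, printed above, had 40, 39, 127, 48 and 20 templates, or 1.06%, 1.199%, 3.22%, 0.550% and 0.220% of the in-frame templates of their TdLN. The next largest had 36 and 30 templates in mouse 1 (Trbv13-2 with Trbj2-3, Trbv29 with Trbj1-5), 21 and 14 in mouse 2 (Trbv1 with Trbj2-7, Trbv12-1 with Trbj1-3), 33 and 32 in mouse 3 (Trbv3 with Trbj1-5 and with Trbj2-5), 39 and 28 in mouse 4 (Trbv5 and Trbv31, both with Trbj2-7), and 17 and 14 in mouse 5 (Trbv4 and Trbv2, both with Trbj2-7). The Trbv13-3 rearrangement of mouse 3 was the one with at least 50 and was listed in none of the other 14 samples. Just outside the count limit, at 4 templates, 323 rearrangements were absent from the tumors and 30 were found. Just outside the absence limit, 13 shared rearrangements had a single tumor template, and 1 of them was the largest shared rearrangement of mouse 4.

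**Figure D1:**
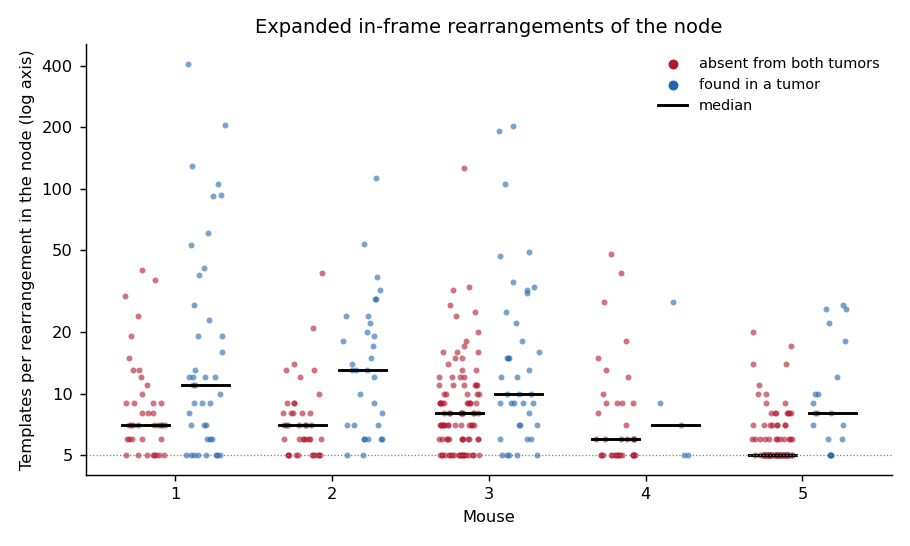
Templates per expanded in-frame rearrangement of the TdLN (log axis) for each mouse, in red for rearrangements absent from both tumors and in blue for those found in a tumor, with black bars at the medians and a dotted line at the minimum of 5. Each point is 1 rearrangement; in every mouse the median of the node-only class, 5 to 8 templates, lies below that of the shared class, 7 to 13, and the largest node-only rearrangement has 127 templates in mouse 3.

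With the 5 TdLNs pooled, absence from the tumors became rarer as the TdLN count rose. Over the 5 TdLNs, 98.5% of the rearrangements with 1 template were absent from both tumors, 97.3% of those with 2 and 95.1% of those with 3 or 4. The share was 78.6% (232 of 295) at 5 to 9 templates, 57.1% (48 of 84) at 10 to 19 and 39.0% (16 of 41) at 20 to 49. Of the 14 rearrangements with 50 or more templates 1 was absent, 7.14% with a 95% Wilson interval of 1.27% to 31.5%. Such intervals treat pooled rearrangements as independent and leave out the spread between mice. Template counts are also estimates made after PCR. The 14 came from mice 1 to 3 alone, with 8, 2 and 4. Single mice did not fall evenly. Mouse 1 had 38.9% absent at 10 to 19 templates (7 of 18) and 50% at 20 to 49 (4 of 8). Mouse 4 had 87.9% at 5 to 9 (29 of 33), 100% at 10 to 19 (5 of 5) and 75% at 20 to 49 (3 of 4). With so few rearrangements, single ones set some of these shares. Rearrangements that were not productive, out of frame or with a stop codon, code for no receptor. Of these, 180 had at least 5 templates and 101 (56.1%) were absent from both tumors. Per mouse the non-productive shares were 41.9%, 35.3%, 57.1%, 78.6% and 71.2%, below the in-frame share in 5 of 5 mice.

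**Figure D2:**
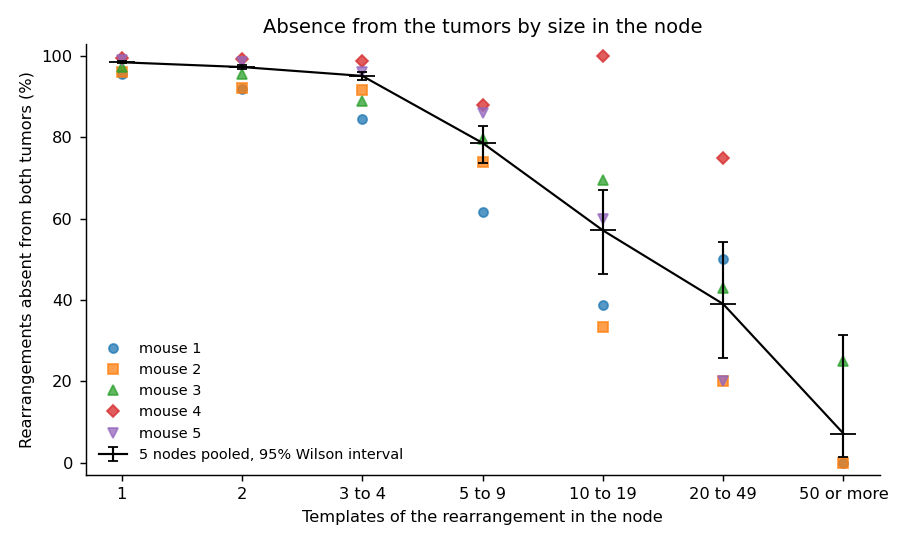
Percentage of in-frame TdLN rearrangements listed in neither tumor of the same mouse (vertical axis) by their template count in the TdLN (horizontal axis), with a symbol per mouse and, in black, the 5 TdLNs pooled with 95% Wilson intervals. The pooled share falls from 98.5% at 1 template to 7.14% at 50 or more; mice 4 and 5 lie above mice 1 and 2 at 3 to 9 templates.

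Tumor depth was set against the share that each node-only rearrangement had in the TdLN. The count behind this share also chose the members, and 100 of the 297 had exactly 5 templates, so the expected tumor counts may be too high. Whether depth caused the absence was not tested. At the TdLN share of each, 232 of the 297 would have had 3 or more templates in the right tumor. These were all 40, 41, 98 and 37 of mice 1 to 4 and 16 of the 81 of mouse 5. In mouse 5 the right tumor had 3601 in-frame templates against 9105 in the TdLN, so whether its smaller node-only rearrangements were rarer in that tumor was not detectable at this depth. A count of 0 allowed a share of up to 0.0489% to 0.0833% of the right tumors and up to 1.26% of the left tumor of mouse 4.

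Few node-only rearrangements had a close relative in the tumors of their mouse. The last 40 bases, which hold most of the junction, were shared with a tumor rearrangement by 0 of the 297, and with a larger rearrangement of the same TdLN by 0 as well. The CDR3 amino acids with the same V and J gene were in a tumor for 3: a Trbv5 and Trbj2-7 rearrangement of mouse 1 with 7 TdLN templates and 11 left tumor templates under another nucleotide sequence, and in mouse 5 a Trbv17 and a Trbv29 rearrangement with Trbj2-7, each with 8 TdLN templates and 3 right tumor templates. A difference of 1 base from a tumor rearrangement was seen for 2, the same Trbv29 rearrangement and a Trbv4 and Trbj2-7 rearrangement of mouse 3 with 17 TdLN templates and 3 left tumor templates. Counting these as found left 294 or 295 node-only rearrangements.

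All 297 node-only rearrangements had a V gene, and they used 21 V genes. Trbv2 (chr6:41047340-41047995) was used by 30, Trbv1 (chr6:40891229-40891885) by 29, Trbv16 (chr6:41151740-41152230) by 26, Trbv12-2 (chr6:41118851-41119364) and Trbv13-2 (chr6:41121396-41121832) by 22 each and Trbv5 by 21. Single mice supplied many of them, since 17 of the 30 Trbv2 and 13 of the 22 Trbv12-2 rearrangements came from mouse 5. At the other end, Trbv13-1 was used by 6, Trbv26 by 5, Trbv30 by 2 and Trbv24 by 1.

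Whether node-only and shared rearrangements used different V genes was tested on each gene's share of the class in each mouse. A two-sided exact permutation test of 5 values against 5 was used, with Benjamini-Hochberg adjustment. It left out the pairing, since both classes came from the same 5 mice. Of 19 V genes that reached 1% on average, 0 were called at an adjusted p under 0.05, a percentage called of 0, and 2 had an unadjusted p under 0.05. Trbv13-1 (chr6:41116007-41116468) made up 0%, 2.44%, 4.08%, 2.70% and 0% of the node-only rearrangements of mice 1 to 5 and 12.2%, 9.38%, 5.13%, 20% and 5% of the shared ones. The groups did not overlap, and its share was lower in 5 of 5 mice, 1.84% ± 1.80 against 10.3% ± 6.19 (SD, n = 5). The exact permutation p was 0.00794, the smallest this unpaired test can give, and the adjusted p was 0.0754. These shares stand for 6 node-only and 12 shared rearrangements. The shared class of mouse 4 held 5 rearrangements in all, so single rearrangements set some of the shares. Trbv13-2 made up 7.50%, 7.32%, 8.16%, 8.11% and 6.17% of the node-only rearrangements and 4.88%, 3.12%, 5.13%, 0% and 5% of the shared ones. Trbv13-2 was higher in 5 of 5 mice without overlap, 7.45% ± 0.805 against 3.63% ± 2.19, with the same exact permutation p and adjusted p. It was used by 22 node-only and 6 shared rearrangements. Both genes belong to the V gene family once named Vβ8. Trbv12-2 stood at 6.30% ± 5.63 against 1.25% ± 2.80 (exact permutation test, adjusted p = 0.452), with 22 rearrangements against 2 and overlap between the classes. Trbv5 stood at 7.80% ± 2.89 against 12.4% ± 9.05 and Trbv4 at 4.88% against 8.58%, with wide overlap between the classes. In limma on log2 shares with the mouse as a replicate block, 2 V genes passed, Trbv13-1 (log2 difference -2.13, adjusted p = 0.0345) and Trbv12-2 (2.02, adjusted p = 0.0345), and without the block 0 passed and 2 had an unadjusted p under 0.05. Lowering the minimum to 3 templates gave 4 calls by the exact test. Without the rearrangements seen in another mouse, many of which lie in left tumors 1 and 2, the Trbv13-1 difference shrank from -8.49 to -1.90 percentage points (exact permutation p = 0.286, adjusted p = 0.933), while that of Trbv13-2 was 4.63 points (adjusted p = 0.238).

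Against the small rearrangements, which were also absent from the tumors but not expanded, the V gene shares gave 0 calls of 19, again a percentage of 0, with 6 at an unadjusted p under 0.05. Trbv13-1 made up 5.89% to 6.66% of the small rearrangements in the 5 mice, above each node-only value (exact permutation test, adjusted p = 0.0754, lower in 5 of 5 mice). With a minimum of 3 templates that difference turned to 0.808 percentage points the other way, and limma with the replicate block called Trbv13-1 alone (log2 difference -1.66, adjusted p = 0.0198). Trbv13-2 was at 9.998% ± 0.740 in the small class, so its node-only share of 7.45% lay between those of the shared and the small rearrangements. Trbv1 was higher among node-only than small rearrangements in 5 of 5 mice, 11.4% ± 6.31 against 4.85% ± 0.387 (exact permutation test, adjusted p = 0.151), with 21.6% in mouse 4. Trbv5 was likewise higher in 5 of 5, 7.80% against 4.72% ± 0.459 (exact permutation test, adjusted p = 0.101). Trbv2 was higher in 4 of 5, 8.69% ± 7.16 against 3.57% ± 0.220 (exact permutation test, adjusted p = 0.151), and mouse 5 reached 21.0%.

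The J genes of node-only rearrangements were far less even than the V genes. Trbj2-7 (chr6:41543810-41543856), the last J segment of the locus, was used by 145 of the 297, Trbj2-1 (chr6:41542754-41542803) by 42, Trbj1-5 (chr6:41535084-41535133) by 26 and Trbj1-3 (chr6:41534323-41534376) by 21, and 2 had no J gene assigned and were left out of J gene shares. The most frequent pairs were Trbv2 with Trbj2-7 in 18 and Trbv1 with Trbj2-7 in 17. Trbj1-1 (chr6:41533864-41533911), the first J segment, was used by 0 of the 297, which allows up to 3.

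Node-only and shared rearrangements were again compared gene by gene. Of 12 J genes tested 0 were called, a percentage called of 0, with 3 at an unadjusted p under 0.05 in the exact permutation test. Trbj1-3 made up 10%, 10%, 7.14%, 5.41% and 5% of the node-only and 0%, 0%, 2.56%, 0% and 0% of the shared rearrangements of mice 1 to 5. No mouse overlapped, and 21 rearrangements stood against 1 (7.51% ± 2.41 against 0.513% ± 1.15, exact permutation p = 0.00794, adjusted p = 0.0952). limma called Trbj1-3 alone, with the replicate block (log2 difference 2.68, adjusted p = 0.00788) and without it (adjusted p = 0.00225). Shared values of 0% in mice 1, 2, 4 and 5 entered limma only as the 1 percentage point added to every share. A minimum of 3 templates gave 2 calls by the exact test. Trbj2-7 made up 55%, 60%, 34.7%, 56.8% and 55% of the node-only and 41.5%, 37.5%, 20.5%, 40% and 45% of the shared rearrangements. Its share was higher within each of the 5 mice, 52.3% ± 10.05 against 36.9% ± 9.55, while the 2 groups overlapped through mouse 3 (exact permutation p = 0.0397, adjusted p = 0.159). Trbj1-5 was higher in 5 of 5 mice, 8.07% ± 2.62 against 3.60% ± 2.74 (exact permutation test, adjusted p = 0.143). Trbj1-1 was used by 11 of the 137 shared rearrangements, all in mice 1 to 3, against 0 node-only ones.

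Against the small rearrangements 9 of 12 J genes were called, a percentage called of 75, with 3 higher and 6 lower in the node-only class. Template count separates the classes compared here, and it moved with the J gene in all TdLN rearrangements, as given below. These calls therefore cannot be told apart from that relation. Trbj2-7 made up 19.8% to 22.3% of the small rearrangements of the 5 mice, below the lowest node-only value of 34.7% (52.3% ± 10.05 against 21.0% ± 0.977, higher in 5 of 5 mice, exact permutation test, adjusted p = 0.0136). Trbj1-5 was higher in 5 of 5 mice (8.07% against 2.996%), and lost its call at a minimum of 10 templates (exact permutation test, adjusted p = 0.0952) and without the rearrangements of other mice (adjusted p = 0.148). Trbj1-3 was higher in 4 of 5 (7.51% against 4.40%), and lost its call at minimums of 3 and 10 (adjusted p = 0.183 and 0.905), without the rearrangements of other mice (adjusted p = 0.486) and without any 1 of mice 1 to 4 (adjusted p = 0.0686 to 0.0762). Trbj1-1 was at 8.82% to 11.3% of the small and at 0% of the node-only rearrangements in each mouse (exact permutation test, adjusted p = 0.0136). Trbj2-5 (2.36% against 11.5%), Trbj2-4 (2.11% against 8.14%), Trbj2-3 (3.51% against 8.13%), Trbj1-4 (3.06% against 6.07%) and Trbj1-6 (1.36% against 3.32%) were the other lower ones. limma with the replicate block called 5 of the 12, Trbj1-1, Trbj1-5, Trbj2-4, Trbj2-5 and Trbj2-7.

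Template count and J gene moved together in all TdLN rearrangements, in frame or not. Trbj2-7 made up 8.58% of in-frame rearrangements with 1 template, 34.9% of those with 2, 67.7% of those with 3 or 4 and 42.4% of those with 5 to 9. In non-productive rearrangements the same shares were 25.3%, 27.7%, 63.9% and 43.5%. Trbj1-1 fell from 14.9% at 1 template to 1.18% at 2, and 95.3% of its in-frame rearrangements had a single template, a mean of 1.11 templates against 2.97 for Trbj2-7 and 2.91 for Trbj1-5. When the small class was limited to rearrangements with 3 or 4 templates, 0 J genes were called, none at an unadjusted p under 0.05, and the Trbj2-7 difference turned from 31.3 to -13.3 percentage points. The part of this relation in the J gene differences was not tested.

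**Figure D3:**
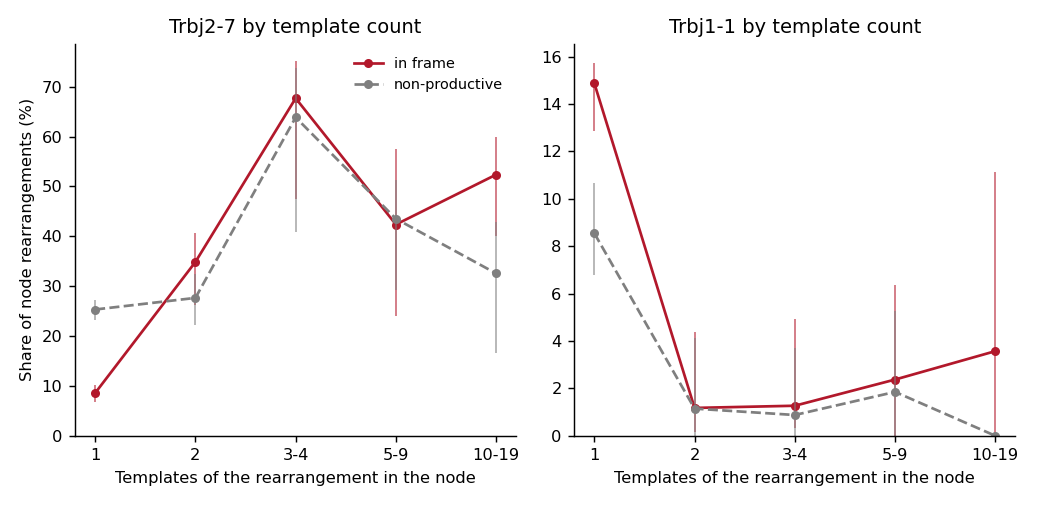
Share of TdLN rearrangements that use Trbj2-7 (left) and Trbj1-1 (right), in percent, by template count up to 19, in red for in-frame and in grey for non-productive rearrangements; points are the 5 TdLNs pooled and vertical lines run from the lowest to the highest mouse. Trbj2-7 rises from 8.58% at 1 template to 67.7% at 3 or 4 in frame and from 25.3% to 63.9% in non-productive rearrangements, and Trbj1-1 drops from 14.9% to 1.18% between 1 and 2 templates in frame.

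**Figure D4:**
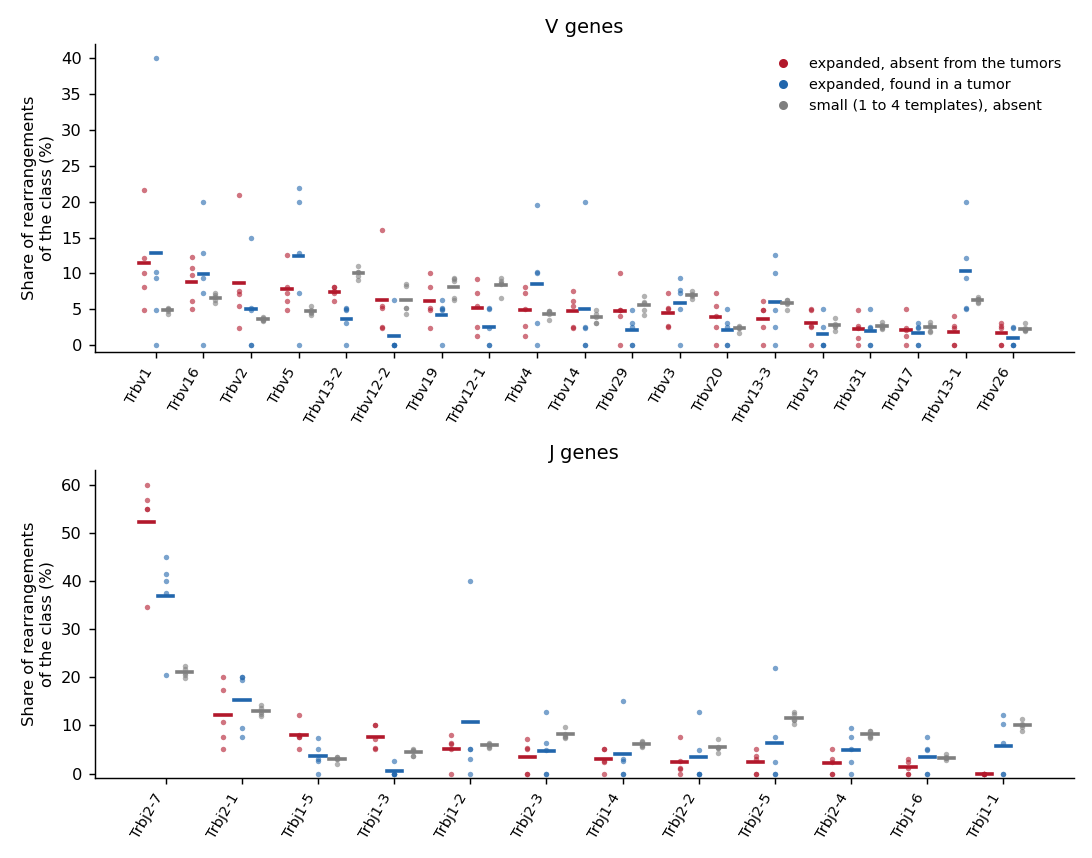
Share of each class, in percent of its rearrangements, that uses each tested V gene (top) and J gene (bottom), with a point per mouse and a bar at the mean of the 5 mice, in red for expanded rearrangements absent from the tumors, in blue for expanded ones found in a tumor and in grey for small ones absent from the tumors. Trbj2-7 stands at 52.3%, 36.9% and 21.0% in the 3 classes, Trbj1-1 is at 0% in every mouse of the node-only class, and Trbv13-1 is at 1.84%, 10.3% and 6.26%.

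CDR3s of node-only rearrangements were 9 to 19 residues long, with a median of 14. Mean lengths were 13.85, 13.5, 13.96, 13.2 and 13.4 residues in mice 1 to 5, against 13.854, 13.97, 14.1, 13.8 and 13.4 in the shared class. The node-only mean was lower in 5 of 5 mice, but the ranges overlapped and the difference of -0.254 residues did not pass (13.6 ± 0.331 against 13.8 ± 0.271, SD, n = 5, exact permutation p = 0.222, adjusted over 10 measures 0.437). The differences of median lengths averaged 0 over the mice, with the node-only median lower in mouse 4 and higher in mouse 5. The small class had 13.9 to 14.2 residues, higher in 5 of 5 mice, a difference of -0.454 (exact permutation p = 0.0238, adjusted p = 0.119). This difference passed with a minimum of 3 templates (-0.598 residues, adjusted p = 0.0397) and turned to 0.114 when the small class was limited to 3 or 4 templates. Short CDR3s of at most 12 residues made up 19.9% of node-only (59), 9.49% of shared and 15.5% of small rearrangements, and long ones of at least 16 made up 9.09% (27), 14.6% and 13.4%.

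N insertions numbered 3.33, 3.88, 3.71, 2.51 and 2.96 bases on average in the node-only rearrangements of mice 1 to 5, with a median of 3 and at most 12. The shared class had 3.15, 3.22, 3.77, 1.2 and 3.05, and the difference was not past the threshold (3.28 ± 0.556 against 2.88 ± 0.978, SD, n = 5, exact permutation p = 0.508). It was 0.402 bases, and 0.174 without mouse 4. The small class had 3.22 to 4.04 (3.61 ± 0.333, exact permutation p = 0.262). No inserted base was found in 40 node-only rearrangements, 13.5%, among them the largest of mouse 4, and in 12 shared ones, 8.76%. By mouse the node-only share without insertions was 10%, 2.44%, 9.18%, 24.3% and 21.0%, highest in mice 4 and 5 as in the shared class, where it was 40% and 20% in these mice (class means 13.4% ± 9.03 and 15.1% ± 15.4, exact permutation p = 0.905). D genes were assigned for most node-only rearrangements, Trbd1 for 125 and Trbd2 for 102, with 70 left without one, against 46, 64 and 27 in the shared class. The Trbj1 cluster as a whole was used by 25.1% ± 5.17 of node-only and 28.2% ± 8.97 of shared rearrangements (exact permutation p = 0.540).

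The node-only rearrangements coded for 290 distinct CDR3 amino acid sequences. A CDR3 that the same TdLN coded for more than once belonged to 67 of the 297 and 32 of the 137 shared rearrangements, 20.8% ± 9.72 against 25.5% ± 9.13 by mouse (exact permutation p = 0.444). The difference of -4.67 points was -11.4 without mouse 5 (exact permutation p = 0.0286, adjusted p = 0.143) and -1.25 without mouse 4. Such a CDR3 belonged to 14.4% ± 5.70 of the small ones (exact permutation p = 0.238, node-only higher in 5 of 5 mice). A CDR3 differing by 1 residue from another of the class in the same TdLN was seen for 6 node-only and 8 shared rearrangements. Of the 290 CDR3s, 6 were in node-only rearrangements of at least 2 mice and 1 in those of 3. That one, of 11 residues and without N insertions, used Trbj2-7 with Trbv29 in mouse 1, Trbv26 in mouse 3 and Trbv12-2 in mouse 4, at 5, 5 and 9 templates.

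Rearrangements identical in all 87 bases were also looked for in the other mice. They were found for 18 of the 297 node-only and 52 of the 137 shared rearrangements. By mouse the node-only share was 2.50%, 2.44%, 2.04%, 32.4% and 2.47%, and the shared class had 51.2%, 78.1%, 2.56%, 40% and 15%. The node-only share was lower in 5 of 5 mice, 8.38% ± 13.4 against 37.4% ± 29.9 (SD, n = 5), which gave p = 0.0556 in the exact permutation test and 0.185 after adjustment. The high shared values of mice 1 and 2 come with left tumors 1 and 2, which held rearrangements of both mice as given above. Tumors of other mice held 51 of the 52 shared and 7 of the 18 node-only rearrangements seen elsewhere. TdLNs of other mice held 7 of the 137 shared and 16 of the 297 node-only ones. Presence in tumors also divided the classes, so the test cannot separate this difference from that choice. Leaving out mouse 2 moved the difference from -29.0 to -17.3 percentage points, and a minimum of 3 templates brought it past the threshold (-31.9 percentage points, adjusted p = 0.0397). Against 0.907% to 1.43% of the small class the node-only share was higher in 5 of 5 mice (exact permutation p = 0.00794, adjusted p = 0.0794). Without mouse 4 that difference shrank from 7.21 to 1.21 percentage points. In mice 1, 2, 3 and 5 the node-only share rested on 1 of 40, 1 of 41, 2 of 98 and 2 of 81 rearrangements.

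**Figure D5:**
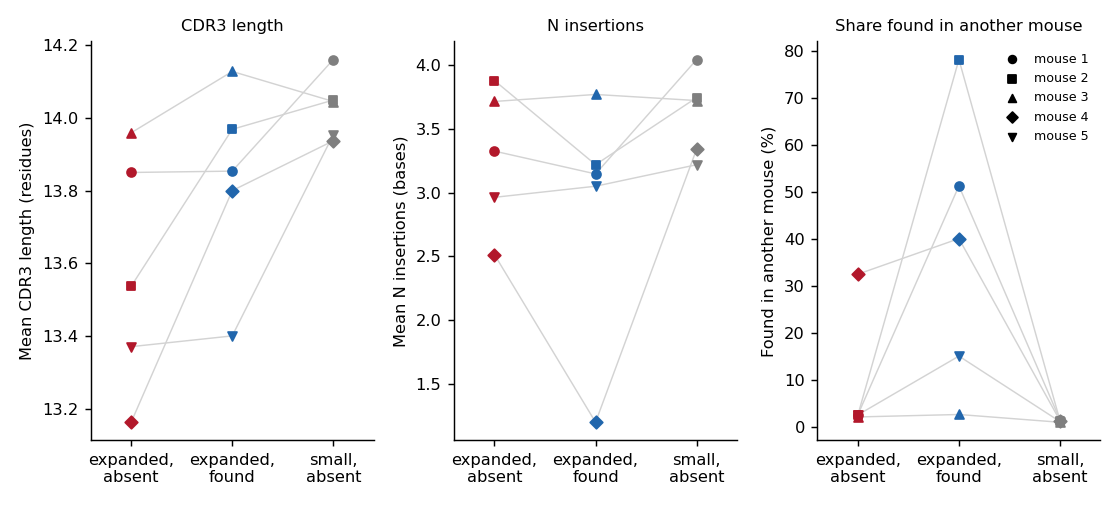
Mean CDR3 length in residues, mean number of N insertions in bases and percentage of rearrangements found in another mouse, each with a symbol per mouse joined by grey lines across the expanded rearrangements absent from the tumors, the expanded ones found in a tumor and the small absent ones. Vertical axes of the first 2 panels do not start at 0; node-only CDR3s are shortest in mouse 4 at 13.2 residues, and 32.4% of its node-only rearrangements are in another mouse against at most 2.50% in the other mice.

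Mouse 4 supplied 12 of the 18 node-only rearrangements seen in another mouse. Of these, 7 were in TdLN 5, 6 in left tumor 5, 3 in TdLN 2 and 2 in TdLN 1. The largest was the Trbv20 and Trbj1-5 rearrangement printed above, with 48 templates in TdLN 4 and 38 in left tumor 5. The pair seen in the most other mice, 3 each, is printed here.
node-only, mouse 4, Trbv2 and Trbj1-5: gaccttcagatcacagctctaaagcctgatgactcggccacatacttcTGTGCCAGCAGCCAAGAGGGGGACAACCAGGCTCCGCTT
node-only, mouse 4, Trbv3 and Trbj2-1: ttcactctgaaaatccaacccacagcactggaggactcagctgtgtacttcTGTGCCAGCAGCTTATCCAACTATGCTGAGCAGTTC
The Trbv2 rearrangement (chr6:41047931-41047995 and chr6:41535086-41535102, GRCm38), without N insertions, had 9 templates in TdLN 4, 93 in TdLN 1, 264 in right tumor 1, 112 in left tumor 1, 24 in left tumor 2, 6 in TdLN 5 and 33 in left tumor 5. The Trbv3 rearrangement (chr6:41048757-41048822 and chr6:41542755-41542772), with 3 insertions, had 5 templates in TdLN 4, 106 in TdLN 1, 3 in TdLN 2, 1035 in right tumor 1, 422 in left tumor 1, 4 in right tumor 2, 88 in left tumor 2 and 1 in right tumor 5. Both were thus far more abundant in the samples of mouse 1 than in the TdLN that made them node-only. Another mouse's tumor held 7 of the 12, and the remaining 290 of the 297 node-only rearrangements were in none of the 10 tumors. Leaving out every rearrangement seen in another mouse left 279 node-only ones.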

How the data were processed

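Genomic DNA of sorted T cells was run on the immunoSEQ assay, and the provider's pipeline assigned V, D and J genes, reading frame and N insertions. The deposited value of a rearrangement is a whole template count for its 87 bases and was used without normalization; the other deposited columns used here (gene names, frame, CDR3 length, insertions, sequence) were taken as given. The submitters' processing notes name mm10, and no software version is given in the sources used here. V and J gene positions are from the GENCODE M21 annotation of GRCm38, to which the germline stretches of the printed sequences were matched exactly.

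Tissues were grouped by the labels and tumors were joined to the TdLN by number. Both classes compared come from the same TdLN of a mouse, so mice pair them by construction. The tests without this pairing are the main ones. With the pairing, gene shares were compared in limma only and the single measures by exact sign flips only. Members were in-frame rearrangements with at least 5 templates, and shares are percentages of the rearrangements of a class. Genes that reached 1% on average were compared by exact permutation over mice, two-sided (252 arrangements), and Benjamini-Hochberg adjustment over the genes of a comparison, and 10 single measures in the same way. Sample numbers in the labels were taken as mice; the labels do not say so, and p-values measure the spread between these numbered samples. Alternatives were minimums of 3 and 10 templates, a cap of 20, the right tumor alone, matching by CDR3 amino acids or with 1 base of difference, removal of rearrangements of other mice, each mouse left out, the 2 spellings of library names, medians, the replicate block, and limma on log2 shares with 1 percentage point added. Non-productive rearrangements as a comparison for gene usage, small rearrangements of 3 or 4 templates and Trbj2-7 rearrangements alone were added after the data had been seen. Named genes are those with most members, those called or, without calls, with the largest differences; named rearrangements are the largest per mouse and class and those in most other mice. Members and lists were chosen with earlier results of these data known. The gene test was tested on simulated data. The software was scipy 1.17.1, numpy 2.4.6 and pandas 2.3.3 under Python 3.11.15, limma 3.58.1 under R 4.3.3, and matplotlib 3.10.9 for plots. CDR3 amino acid sequences are not printed.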

Additional observations from a re-analysis of the deposited data

Results flagged for a closer look

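Among 25 groups of 5 mice examined, 2 held a mouse far from the others by Dixon's test, which chance alone brings about in about 1 of 20 groups. The 25 include the node-only values of some measures again for each comparison, whereas a repeated mouse was counted once. The 2 can therefore not be set exactly against that rate. In the node-only class, 32.4% of the rearrangements of mouse 4 were found in another mouse, while the other 4 mice lay between 2.04% and 2.50%. The gap was 0.985 of the whole range. In the shared class, rearrangements of mouse 4 had 1.2 N insertions on average, while the other mice lay between 3.05 and 3.77 (gap 0.720 of the range). That class holds 5 rearrangements in mouse 4.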

How the results depend on the processing

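The number of node-only rearrangements depended on the minimum, with 2023 at 3 templates (28.4% of node templates on average) and 65 at 10; mice 1 to 3 gave 179, mice 4 and 5 gave 118, and non-productive rearrangements gave 101. Leaving out a mouse gave 199 to 260. V gene calls against the shared class stayed at 0 without any single mouse and came to 4 at a minimum of 3 and 2 in limma with the replicate block; J gene calls came to 2 at a minimum of 3 and to 1 in limma with and without the block. Against the small class, limma with the replicate block called 1 V gene, and J gene calls were 5 at a minimum of 10, 5 in limma with the block, 0 with small rearrangements of 3 or 4 templates and 7 to 9 without 1 mouse. At a minimum of 3, 2 differences passed the threshold, in CDR3 length against the small class (-0.598 residues) and in the share found in another mouse against the shared class (-31.9 points). The share found in another mouse counts tumors too, and presence in tumors also divided these classes. Signs turned as follows. At a minimum of 3, Trbv13-1 against the small class was at 0.808 points and the share without N insertions at 1.09; the latter was also at 2.57 with a cap of 20 templates, 2.02 in mice 1 to 3, 4.69 among Trbj2-7 rearrangements, and -3.17 to 1.76 without 1 mouse. The Trbj1 cluster difference was 7.68 at a minimum of 10, 3.46 in mice 1 to 3, 6.76 in non-productive rearrangements and -5.54 to 0.0972 without 1 mouse. The share with a CDR3 encoded more than once was at 0.102 at a minimum of 10 and 1.83 in mice 4 and 5. Median CDR3 lengths differed from the shared class by 0 on average over the mice. In non-productive rearrangements, Trbv13-2 (-0.563), Trbv5 (6.80), Trbj1-3 (-0.480) and N insertions (-0.408) turned against the shared class, and Trbv13-1 (1.33) and Trbj1-4 (3.44) against the small class. With small rearrangements of 3 or 4 templates, Trbj2-7 (-13.3), Trbj2-3 (2.005), Trbj2-4 (1.32), Trbj2-5 (0.1905) and CDR3 length (0.114) turned. The cause of these changes was not tested. In the paired analysis with the replicate block, exact sign flips can give no p below 0.0625, so none of the 10 single measures, such as the CDR3 length difference of -0.454 residues against the small class, could pass. The small number of tumor templates in left tumor 4 (238 in frame) and the depth of right tumor 5 limit what absence shows in these mice.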
